A study of Mus musculus with 9 samples.

Results

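Hormone-sensing luminal cells are the cells of the mammary gland that carry the receptors for estrogen and progesterone, and 10 genes tied to their identity and to their signals were followed here. They are the receptors Esr1 and Pgr, their cofactor Foxa1, the secreted signals Wnt4 and Tnfsf11, the transcriptional regulators Cited1, Cited4 and Tbx3, and the estrogen-responsive genes Greb1 and Stc2. The genes were taken by name, and every probe set that the array annotation gives to one of them alone was used, which made 26 probe sets of 34958 with 1 gene, and 10 of 18194 genes. Of the 10 genes, 8 were measured by more than 1 probe set, and Foxa1 and Cited1 by 1 each. All 10 were compared in 3 groups of 3 arrays, lettered A, B and C.

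The first group was LD cells, luminal differentiated cells sorted as EpCAM-high, CD49f-low and CD61-negative from dissociated mouse mammary glands and not cultured. The second group was organoids grown from sorted mammary stem cells (MaSC organoids). The third was organoids grown from LD cells that had gone through doxycycline-inducible expression of YAP (yMaSC organoids). By the study's methods the glands came from virgin C57BL/6J mice 8 to 12 weeks old unless stated otherwise. The YAP was the wild-type protein unless stated otherwise, delivered by lentivirus together with the rtTA transactivator, and doxycycline was given in the culture that preceded the organoid medium, which lists none. Both kinds of organoid lay in undiluted Matrigel under Advanced DMEM/F12. To it were added R-Spondin1, which enhances Wnt signaling, noggin, which blocks BMPs, the growth factors EGF and bFGF, and heparin, besides Hepes, GlutaMax and antibiotics. The labels name no ovarian hormone among these additions, and they do not say how many mice stand behind an array. LD cells were fresh and all organoids were cultured. In the comparison of MaSC organoids with LD cells, culture and cell of origin therefore cannot be told apart. In that of yMaSC organoids, which came from LD cells, culture cannot be told apart from the past lentivirus, doxycycline and YAP expression.

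Within the epithelium of the adult gland, estrogen and progesterone act directly on the hormone-sensing cells, and these cells pass the message on to their neighbors. Progesterone raises Wnt4, which acts on basal cells, and Tnfsf11 (RANKL), which acts on neighboring progenitors through its receptor RANK. Foxa1 opens chromatin for the estrogen receptor, and Greb1 is a classical estrogen target that also binds the receptor. These genes therefore cover the reception of the hormone signal, its relay and its readout.

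Values are log2 intensities after RMA, and levels are compared between groups for a probe set, not between genes. A gene passed when its adjusted p in a limma fit of all 9 arrays was under 0.05 after Benjamini-Hochberg adjustment over all 18194 genes. The lower quartiles of the arrays lay between 3.47 and 3.59, and a level near or under them is weak signal. In LD cells Esr1, Pgr, Foxa1, Wnt4, Cited1, Tbx3 and Stc2 were above the upper quartile of every array (7.39 to 7.59), by the probe set used for each. Among other markers of hormone-sensing cells, Prom1 was above it too (11.07 to 11.57), whereas Spdef was under it (6.51 to 7.16). In these mixed RNA samples, fewer cells of a type and less RNA per cell cannot be told apart. LD B stood apart from LD A and LD C. The milk protein gene Csn2 read 3.44 in LD B against 12.98 and 12.97, and Fabp4, listed as an adipocyte marker, read 10.92 against 4.20 and 3.70. The other adipocyte markers measured did not share this. Adipoq, Lep, Cidec and Pparg read 3.28, 3.62, 2.91 and 4.45 in LD B, and 2.71 to 4.28 in LD A and C. The mean of 7 endothelial markers was 6.17 in LD B against 4.03 and 4.18. In all 3 LD arrays, 10 luminal epithelial markers averaged 12.46 to 12.55, against 11.18 to 11.56 in organoids, and 10 basal markers averaged 6.0 to 6.4, against 7.78 to 9.40. The mean of 10 immune markers lay between 5.82 and 6.45 in LD cells and between 3.90 and 4.27 in organoids. Of the 10, 9 fell in MaSC organoids and 8 in yMaSC organoids, where 15.2% and 14.3% of all genes fell. The part of these markers in the results was not tested. By the study's methods the sort included an antibody cocktail against blood lineages, and lineage-negative cells were kept. The leukocyte gene Ptprc read 8.17 to 8.94 in LD cells and 2.64 to 2.99 in organoids.

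Relative to LD cells, 5 of the 10 genes fell in MaSC organoids (Esr1, Pgr, Wnt4, Tnfsf11 and Cited1) and 1 rose (Cited4). Over all genes tested, 15.2% fell and 22.1% rose. In yMaSC organoids 6 fell, the same 5 and Tbx3, and Cited4 rose. The background there was 14.3% lower and 21.6% higher. The median difference of the 10 genes was -1.16 log2 in MaSC organoids and -1.35 log2 in yMaSC organoids, against -0.02 and -0.01 over all genes. All arrays of a kind lay outside the LD range for 6 genes in MaSC organoids, 4 below and 2 above, where 21.3% and 26.6% of all genes did so. In yMaSC organoids 6 lay below and 1 above, against 19.9% and 25% of all genes. Both comparisons use the same LD arrays and are not independent. Esr1, Wnt4 and Cited1 passed in both comparisons under each of the 21 alternatives tried, including every array left out in turn. The calls of Pgr, Tnfsf11, Cited4 and Tbx3 each depended on single arrays, as given with each gene.

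**Figure D1:**
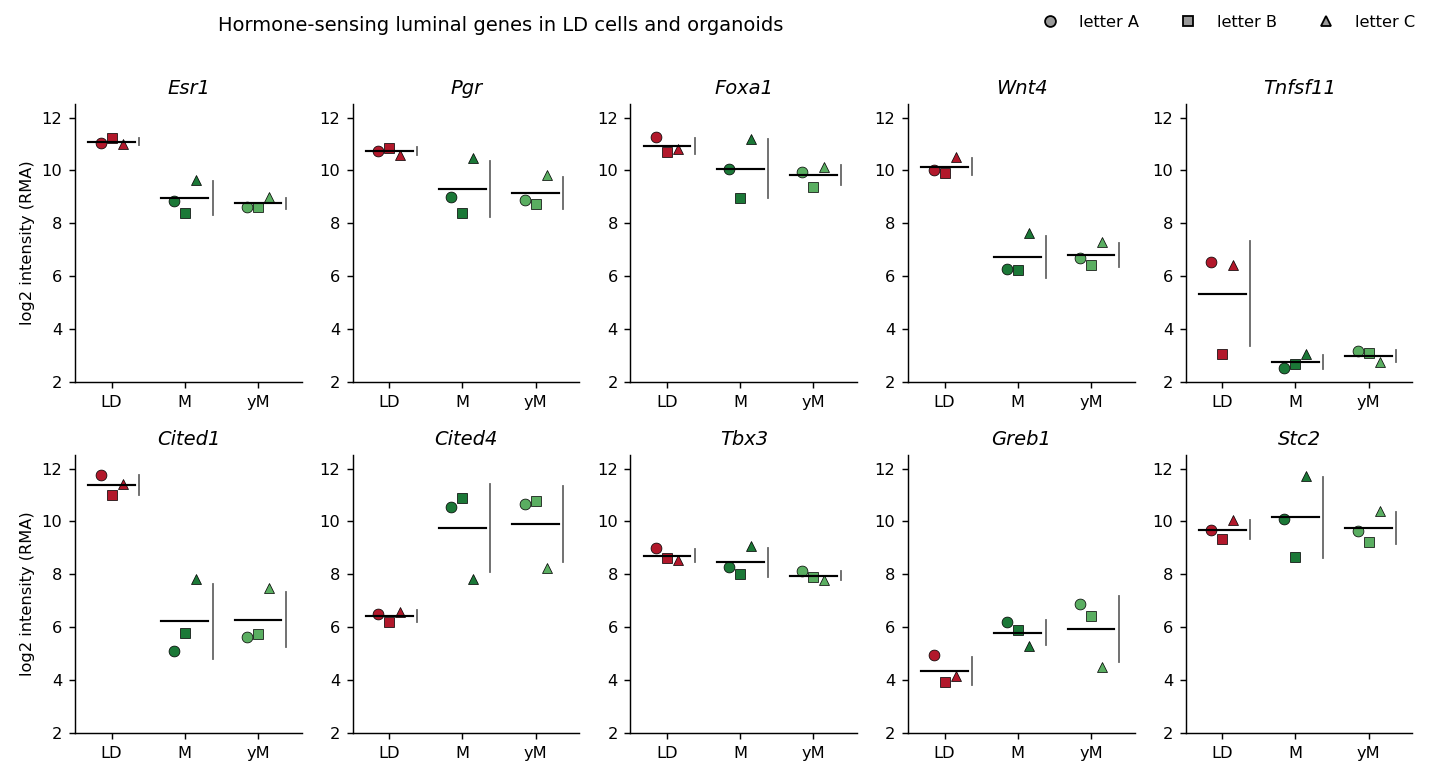
Log2 intensity (vertical axis) of the probe set used for each of the 10 genes in LD cells (LD), MaSC organoids (M) and yMaSC organoids (yM). Each point is 1 array with its letter as the symbol, the black line is the mean and the gray bar is 1 SD of 3 arrays. Esr1, Wnt4 and Cited1 lie lower in all 6 organoid arrays than in all 3 LD arrays, and Cited4 lies higher.

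The receptors come first. Esr1, estrogen receptor alpha, read 11.03, 11.24 and 10.99 in LD A, B and C. It read 8.83, 8.40 and 9.65 in MaSC organoids A, B and C, and 8.63, 8.62 and 9.01 in yMaSC organoids. Every organoid array lay at least 1.34 below the lowest LD array. The fall was 2.13 log2 (4.37-fold, 95% interval -2.77 to -1.49, adjusted p = 0.000461) in MaSC organoids. In yMaSC organoids the difference was -2.33 log2 (5.04-fold lower, adjusted p = 0.000297). All 3 probe sets of Esr1 passed in both comparisons, the other 2 with differences of -2.63 and -1.44 log2 in MaSC organoids and -2.67 and -1.49 in yMaSC organoids.

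Pgr, the progesterone receptor and itself induced by estrogen, read 10.74, 10.87 and 10.59 in LD cells. Its levels were 8.98, 8.41 and 10.47 in MaSC organoids and 8.90, 8.73 and 9.83 in yMaSC organoids. Organoids A and B were low and organoids C came close to LD cells, without overlap. The means fell by 1.45 log2 (2.73-fold, adjusted p = 0.0452) and by 1.58 log2 (2.99-fold, adjusted p = 0.033). Of its other 2 probe sets, 1 passed in both comparisons, and the other passed in yMaSC organoids (-1.16 log2) but not in MaSC organoids (-0.76 log2, adjusted p = 0.0754). The call was close to the threshold. In MaSC organoids it was lost without any 1 of 7 arrays, all but organoids C of either kind, at differences of -1.52 to -1.01 log2 and adjusted p of 0.0575 to 0.146. In yMaSC organoids it was lost without LD A, LD B, LD C, yMaSC organoid A or B, at -1.65 to -1.37 log2 and adjusted p of 0.0667 to 0.111. When organoids C of both kinds were left out, the differences were -2.04 and -1.92 log2, with adjusted p of 0.000322 and 0.000427.

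Foxa1, the forkhead factor that opens chromatin for the estrogen receptor, read 11.28, 10.70 and 10.83 in LD cells, 10.05, 8.96 and 11.21 in MaSC organoids and 9.95, 9.39 and 10.12 in yMaSC organoids. MaSC organoid C lay inside the LD range, whereas the other 5 organoid arrays lay below it. The differences of -0.86 and -1.12 log2 did not pass (adjusted p = 0.205 and 0.111). The 95% intervals ran from -1.97 to 0.25 and from -2.23 to -0.01. Leaving out organoids C of both kinds, Foxa1 passed at -1.43 log2 (adjusted p = 0.0172) and -1.27 log2 (adjusted p = 0.0281). Leaving out MaSC organoid C alone was enough for the first (-1.43 log2, adjusted p = 0.0157). The yMaSC difference passed without MaSC organoid B or C (adjusted p = 0.0332 and 0.0261), with the letter as a replicate block (adjusted p = 0.0499) and with the compared groups alone (adjusted p = 0.0128).

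The relay signals come next. Wnt4, the Wnt ligand made under progesterone, read 10.03, 9.89 and 10.50 in LD cells. It read 6.27, 6.25 and 7.64 in MaSC organoids and 6.67, 6.41 and 7.31 in yMaSC organoids. The highest organoid array was 2.25 below the lowest LD array. The fall was 3.42 log2 (10.7-fold, adjusted p = 0.000209) and 3.34 log2 (10.1-fold, adjusted p = 0.000253). The second probe set gave -3.35 and -3.28 log2 and passed in both.

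Tnfsf11, the cytokine RANKL, read 6.53 in LD A and 6.44 in LD C but 3.04 in LD B. Organoid levels were 2.52, 2.66 and 3.04 (MaSC) and 3.16, 3.08 and 2.74 (yMaSC), all under the lower quartile of their arrays, so that a fold change from them is a lower limit. LD B thus lay among the organoids, and LD A and C stood above all of them. The differences were -2.60 log2 (adjusted p = 0.0313) and -2.34 log2 (adjusted p = 0.0483). The second probe set read 4.76, 3.52 and 4.75 in LD cells and 2.96 to 3.29 in organoids, did not overlap and passed in both comparisons, at -1.22 and -1.13 log2. Without LD B the differences of the first probe set were -3.75 and -3.49 log2, with adjusted p of 1.29e-05 and 1.88e-05. In MaSC organoids the call was lost without LD A, LD C or any MaSC organoid array (-2.75 to -2.00 log2, adjusted p 0.0549 to 0.106). In yMaSC organoids it was lost without any 1 of 8 arrays, all but LD B (-2.43 to -1.75 log2, adjusted p 0.0624 to 0.153). Without organoids C of both kinds it was lost in both comparisons, at -2.75 log2 (adjusted p = 0.0683) and -2.22 log2 (adjusted p = 0.128). T cells also make RANKL, and their genes Cd3e and Cd3g read 5.76, 6.32 and 5.99, and 3.58, 4.54 and 4.66, in LD A, B and C. Their part in the Tnfsf11 levels was not tested.

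The CITED coactivators, which lack a DNA-binding domain of their own and act through CBP and p300, went in opposite directions. Cited1, a marker of estrogen receptor-positive luminal cells, read 11.76, 11 and 11.42 in LD cells. In organoids it read 5.09, 5.77 and 7.82 (MaSC) and 5.64, 5.73 and 7.48 (yMaSC). No organoid array came within 3.18 of an LD array. The fall was the largest of the 10 genes, at 5.17 log2 (35.9-fold, adjusted p = 0.000579) and 5.11 log2 (34.5-fold, adjusted p = 0.000656). With organoids C of both kinds left out, the differences were -5.96 log2 (62.4-fold lower) and -5.71 log2 (52.3-fold lower).

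Cited4 read 6.49, 6.18 and 6.59 in LD cells. It read 10.56, 10.88 and 7.84 in MaSC organoids and 10.68, 10.79 and 8.24 in yMaSC organoids. All organoid arrays were above LD cells, and organoids C stood between LD cells and organoids A and B. The rise was 3.34 log2 (10.1-fold, adjusted p = 0.0156) and 3.48 log2 (11.2-fold, adjusted p = 0.0132). It rests on 1 of 2 probe sets. The other read 4.98 to 5.38 in all 9 arrays, with differences of -0.05 and 0.01 log2 and 95% intervals of -0.34 to 0.24 and -0.28 to 0.30. The call was lost without MaSC organoid A (2.94 log2, adjusted p = 0.0599) or B (2.78 log2, adjusted p = 0.0591) in the first comparison, and without yMaSC organoid A (3.10 log2, adjusted p = 0.0506) or B (3.04 log2, adjusted p = 0.0537) in the second. The rise without organoids C of both kinds was 4.30 log2 (19.7-fold) and 4.32 log2 (19.9-fold).

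The proximal promoters of these 2 relatives are shown because the genes moved furthest in either direction. RefSeq promoter windows were found for 9 of the 10 genes, and the 250 bases before the start farthest upstream are given here 5′ to 3′ on the gene's strand, in build GRCm38.p6. The Cited1 window lies at chrX:102252182-102252431, minus strand, and that of Cited4 at chr4:120666313-120666562, plus strand. Capitals mark TATAAA, the TATA motif.
Cited1: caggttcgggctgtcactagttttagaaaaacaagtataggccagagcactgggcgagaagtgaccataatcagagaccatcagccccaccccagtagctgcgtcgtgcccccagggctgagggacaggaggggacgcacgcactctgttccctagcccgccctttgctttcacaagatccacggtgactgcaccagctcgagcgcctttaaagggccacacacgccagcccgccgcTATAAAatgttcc
Cited4: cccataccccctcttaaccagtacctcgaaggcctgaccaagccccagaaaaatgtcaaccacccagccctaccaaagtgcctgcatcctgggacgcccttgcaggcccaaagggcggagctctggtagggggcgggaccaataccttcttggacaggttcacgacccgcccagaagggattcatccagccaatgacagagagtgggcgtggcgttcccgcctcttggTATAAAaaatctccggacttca
The motif began 13 bases before the Cited1 start and 22 bases before the Cited4 start. Searched on both strands, it was in 12.4% of all 32851 windows and in 4 of the 9 members' windows, the other two being Pgr and Tnfsf11. The GC content was 58.0% in both, against a median of 52.4%. Neither window held the receptor half-site, the forkhead motif or the full estrogen response element spelled out with Greb1, of which the full element shares 5 letters with the half-site.

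Tbx3, a T-box repressor needed for mammary development, read 9.00, 8.60 and 8.53 in LD cells, 8.27, 8.03 and 9.06 in MaSC organoids and 8.14, 7.91 and 7.79 in yMaSC organoids. MaSC organoid C exceeded all LD arrays, and the yMaSC organoids lay below them. The difference was -0.26 log2 in MaSC organoids (adjusted p = 0.475), and in yMaSC organoids Tbx3 fell by 0.76 log2 (1.70-fold, adjusted p = 0.046). Of 5 probe sets, 2 passed in yMaSC organoids (the second at -1.03 log2, a set whose probes can match other transcripts) and 0 in MaSC organoids. The other 3 had differences between -0.38 and 0.02 log2 in yMaSC organoids. The yMaSC call was lost without any 1 of 7 arrays, all but MaSC organoids B and C (-0.86 to -0.62 log2, adjusted p 0.0622 to 0.137). It was also lost with the letter as a replicate block (adjusted p = 0.0559) and with the mean of all probe sets (-0.43 log2, adjusted p = 0.108). Tbx3 passed in both comparisons, at -0.56 and -0.69 log2, without organoids C of both kinds.

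The estrogen-responsive readouts come last. Greb1, a coactivator that estrogen induces, read 4.94, 3.92 and 4.15 in LD cells. It read 6.21, 5.91 and 5.27 in MaSC organoids and 6.87, 6.44 and 4.51 in yMaSC organoids. MaSC organoids lay above LD cells, and yMaSC organoid C lay within the LD range. The differences were 1.46 log2 (2.75-fold, adjusted p = 0.078) and 1.60 log2 (3.04-fold, adjusted p = 0.0583), and did not pass. A second probe set gave 1.58 and 1.71 log2. The other 2 of its 4 probe sets gave -0.24 and -0.11 in MaSC organoids and -0.15 and -0.10 in yMaSC organoids, and none passed. With the letter as a replicate block Greb1 passed in both comparisons (adjusted p = 0.0204 and 0.0146). When organoids C of both kinds were left out it passed at 1.72 log2 (adjusted p = 0.00476) and 2.32 log2 (adjusted p = 0.00137), and leaving out yMaSC organoid C alone was enough (adjusted p = 0.00831 and 0.00187).

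The Greb1 promoter is shown because Greb1 was the one member whose farthest upstream window held the hormone receptor half-site AGGTCA, read here on the other strand as TGACCT and set in capitals. The window lies at chr12:16800887-16801136, minus strand. The Foxa1 window, at chr12:57546112-57546361, minus strand, is shown for the forkhead motif TGTTTAC, read on the other strand as GTAAACA.
Greb1: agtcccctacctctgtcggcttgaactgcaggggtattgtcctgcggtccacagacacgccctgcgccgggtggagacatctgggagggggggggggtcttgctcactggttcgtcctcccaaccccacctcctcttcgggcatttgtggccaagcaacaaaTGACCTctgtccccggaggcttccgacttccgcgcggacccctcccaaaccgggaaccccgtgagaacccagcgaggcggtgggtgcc
Foxa1: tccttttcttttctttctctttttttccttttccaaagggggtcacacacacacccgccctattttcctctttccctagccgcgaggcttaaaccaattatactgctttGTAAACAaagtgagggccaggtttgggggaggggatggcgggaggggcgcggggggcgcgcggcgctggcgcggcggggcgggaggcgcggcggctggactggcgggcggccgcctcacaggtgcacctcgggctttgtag
The half-site began 88 bases before the Greb1 start, and 14.0% of all windows held it on either strand. A second window of Cited1, not shown, held it 217 bases before its start. The forkhead motif began 141 bases before the Foxa1 start and was in 3.17% of all windows. The full estrogen response element GGTCANNNTGACC was in 0.0639% of all windows and in 0 of the 9 members' windows. A match in so short a window describes its letters only, and no binding was measured.

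Stc2, a secreted glycoprotein of the stanniocalcin family, read 9.69, 9.34 and 10.06 in LD cells, 10.10, 8.65 and 11.73 in MaSC organoids and 9.63, 9.24 and 10.40 in yMaSC organoids. Organoid B of each kind was below LD cells and organoid C above them, and the groups overlapped. The differences of 0.46 log2 (95% interval -1.06 to 1.98) and 0.06 log2 (-1.46 to 1.58) did not pass. The other 2 probe sets gave -0.97 and -0.89 log2 in MaSC organoids and -1.26 and -0.67 log2 in yMaSC organoids, also without passing. The probe sets of Stc2 thus gave no common direction.

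**Figure D2:**
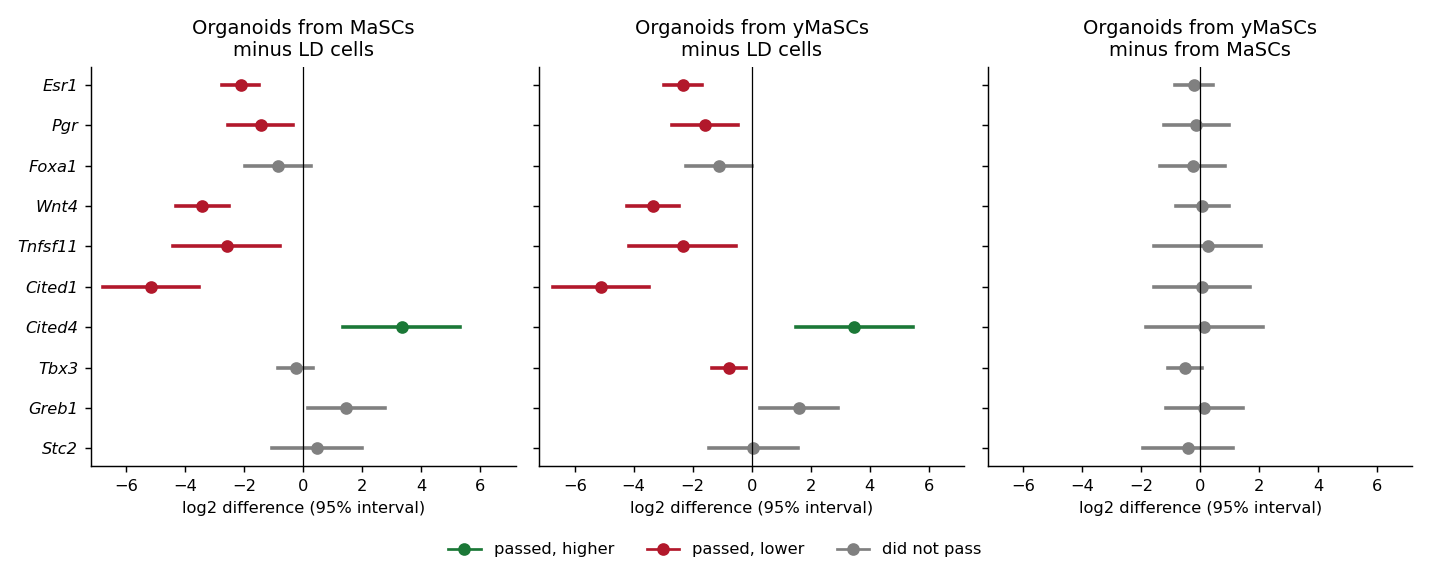
Log2 difference (horizontal axis) of each gene's probe set in the 3 comparisons, with the mean as a point and the 95% interval of the limma fit as a line; color tells whether it passed and in which direction. Against LD cells, 5 genes fell and 1 rose in MaSC organoids, 6 fell and 1 rose in yMaSC organoids, and in the comparison of the organoids every interval includes 0.

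**Figure D3:**
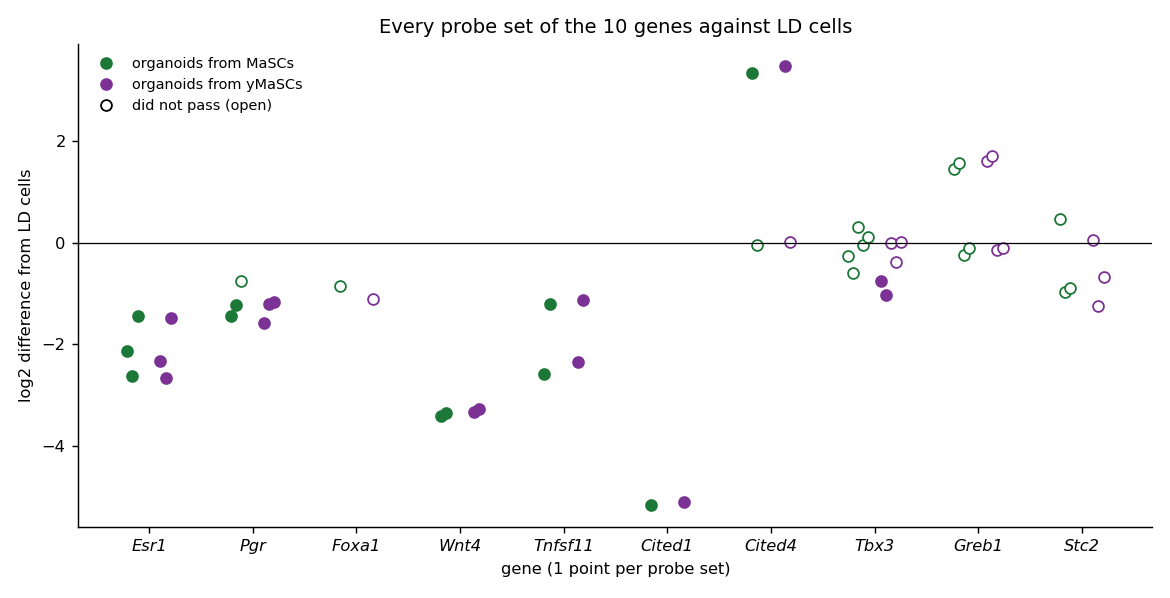
Log2 difference from LD cells (vertical axis) of each of the 26 probe sets, by gene, in MaSC organoids (green) and yMaSC organoids (purple). Filled points passed. The probe sets of Esr1, Wnt4 and Tnfsf11 agree in direction and all passed, whereas those of Cited4, Tbx3, Greb1 and Stc2 differ.

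Over all 26 probe sets, 10 fell and 1 rose in MaSC organoids, where 16% of all probe sets fell and 19.9% rose. In yMaSC organoids 13 fell and 1 rose, where 15.4% fell and 19.4% rose.

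The organoids were then compared with each other, to ask whether organoids that began as luminal cells hold more of the hormone-sensing genes than those that began as stem cells. None of the 10 genes and none of the 26 probe sets passed in limma, and 0% of all genes did. At an unadjusted p under 0.05 there were 0 members, against 0.572% of all genes. The 10 differences ran from -0.51 log2 (Tbx3, 95% interval -1.09 to 0.08) to 0.25 log2 (Tnfsf11, -1.56 to 2.07). The interval lay within 1 log2 for 2 members, Esr1 (-0.85 to 0.43) and Wnt4 (-0.81 to 0.97), against 93.2% of all genes. Deviations from the group mean correlated at r = 0.607, 0.611 and 0.649 across genes between MaSC and yMaSC organoids of the same letter. No correlation was computed between organoids of different letters, and C departed from A and B in both kinds. These values therefore cannot show that each letter marks a pair. With the letter as a replicate block in the organoid arrays alone, again 0 members passed (lowest adjusted p = 0.964), 0 had an unadjusted p under 0.05 against 3.28% of all genes, and the interval was within 1 log2 for 8 members, against 98.1% of all genes. The exceptions were Tbx3 (-1.13 to 0.12) and Stc2 (-1.29 to 0.49). By letter, the difference of yMaSC from MaSC organoids for Tbx3 was -0.13, -0.12 and -1.27 log2 in A, B and C, and for Foxa1 it was -0.10, 0.43 and -1.09. The pairs did not share a direction. The difference was below 0 for 5 of the 10 genes in pair A, for 3 in pair B and for 9 in pair C (all but Cited4, at 0.40 log2), where 48.9%, 39.7% and 52.5% of all genes were below 0.

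Organoids of letter C departed from A and B in most of these genes. In 6 of the 10 genes (Esr1, Pgr, Foxa1, Wnt4, Cited1 and Stc2) both organoids C lay above all 4 organoids A and B, and in 2 (Cited4 and Greb1) they lay below. Over all genes these shares were 17.1% and 17.8%. In a test of the letter within the 6 organoid arrays, 4 members passed (Cited4, adjusted p = 0.00443; Cited1, 0.016; Pgr, 0.0425; Wnt4, 0.0489), where 5.52% of all genes did. The test was fitted with limma, with the kind of organoid as a covariate. Without any 1 of the 6 organoid arrays, 0 members passed it. Such a fit has few arrays left to estimate the spread. The share of all genes that passed it is not given, so this count does not speak of the members in particular. On probe sets, 4 of 26 passed against 4.24% of all, whereas Wnt4 did not (adjusted p = 0.0502), and among the 4 was a probe set of Stc2 that read 8.62 and 8.67 in organoids C and 6.61 to 7.01 in A and B.

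The size of the step was 2.09 log2 for Cited1, 1.40 log2 for Pgr, 1.08 log2 for Wnt4 and -2.69 log2 for Cited4, as organoids C minus the mean of A and B. In 9 of the 10 genes, all but Stc2, the mean of organoids C was nearer to the LD mean than that of A and B. The exception holds for the probe set used for Stc2. Its other probe sets read 10.4 and 8.6 in organoids C, 9.0 and 6.8 in A and B, and 10.6 and 8.2 in LD cells, so that C was nearer there. For Tnfsf11 the differences from LD cells were nearly equal, at -2.45 log2 in organoids C and -2.48 log2 in A and B, with all organoid levels under the lower quartile, and Tbx3 was counted through MaSC organoid C, since yMaSC organoid C was the organoid array farthest from LD cells. Over all genes, organoids C were nearer for 55.4%, and among the genes that passed in both comparisons with LD cells for 61.5%. Cited1 in organoids C was still 3.74 log2 below LD cells, and in A and B it was 5.84 below. For Pgr these distances were 0.58 and 1.98 log2.

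**Figure D4:**
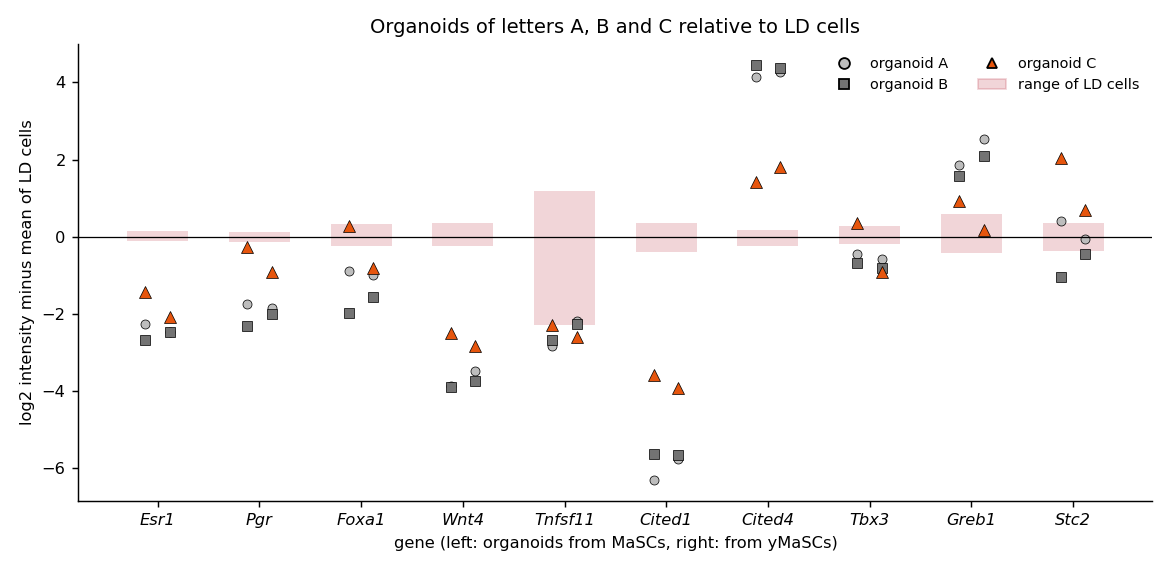
Log2 intensity minus the mean of LD cells (vertical axis) for each gene in the organoid arrays, with MaSC organoids on the left and yMaSC organoids on the right of each gene; symbols give the letter and the pink boxes the range of the 3 LD arrays. Organoids C (orange triangles) lie nearer to 0 than A and B for Cited1, Cited4, Pgr and Wnt4.

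Other genes moved with letter C. All 7 measured proliferation markers passed the letter test, where 5.52% of all genes did. Mki67 read 8.37 and 8.30 in organoids C and 4.88 to 5.39 in A and B, and it also differed among LD cells (8.82, 6.09 and 8.36). Prom1, a surface marker of hormone-sensing cells, read 12.02 and 11.88 in organoids C against 9.61 to 9.95 in A and B. Of the 6 other hormone-sensing and luminal markers measured, 1 passed the letter test, and this was Prom1. Spdef, also among the 6, read 5.46 and 4.72 in organoids C against 4.77 to 5.32 in A and B. Fkbp5, a co-chaperone of steroid receptors that glucocorticoids and progesterone induce, read 7.45 and 8.48 in organoids C against 11.37 to 11.60. Mki67, Prom1, Fkbp5, Csn1s1, Lalba and, above, Fabp4, Cd3e and Cd3g were chosen after their values were seen. Basal markers also averaged higher in organoids C, at 9.40 and 8.80 against 7.78 to 8.16, and 1 of the 10 passed the letter test. The 10 luminal progenitor and alveolar markers averaged 9.54 and 9.66 in organoids C against 8.68 to 9.01, and 2 of them passed. These were the milk protein genes Csn1s1 (12.85 and 13.29 against 7.72 to 9.14, adjusted p = 0.00409) and Lalba (10.42 and 9.92 against 7.01 to 7.67, adjusted p = 0.00859). The rest of that list did not rise as a whole. Itgb3 (6.60 and 6.52 against 5.69 to 6.13) and Aldh1a3 (10.40 and 10.11 against 8.82 to 9.41) were higher in organoids C. Cd14 (12.64 and 12.56 against 12.90 to 13.13) and Csn2 (3.11 and 3.26 against 3.35 to 3.50) were lower, and Kit, Elf5, Csn3 and Wap overlapped. The part of these genes in the letter difference was not tested.

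Other genes of the pathway were counted by list. Over all genes, 22.1% rose and 15.2% fell in MaSC organoids, and 21.6% rose and 14.3% fell in yMaSC organoids. Each count below stands against these shares. Of 13 other hormone receptors measured, 5 rose and 0 fell in MaSC organoids, and 5 rose and 1 fell in yMaSC organoids. Oxtr, the oxytocin receptor of myoepithelial cells, read 4.04, 4.04 and 5.10 in LD cells and 8.26 to 10.05 in organoids, and rose 27.4-fold in MaSC organoids. Ghr, the growth hormone receptor, rose 3.31-fold, Vdr, the vitamin D receptor, 2.35-fold, and the insulin receptor Insr 2.32-fold. Nr3c2, the mineralocorticoid receptor, fell by 0.79 log2 in yMaSC organoids. The second estrogen receptor, Esr2, had group means of 3.18 and 3.25 in LD cells and MaSC organoids, under the lower quartile.

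Of 11 receptor coregulators, 4 rose and 2 fell in each comparison, the falls being near the share of all genes. The coactivators Ncoa3, Ncoa1 and Ncoa2 rose 2.47-fold, 2.15-fold and 2.13-fold in MaSC organoids. Nrip1, a corepressor that estrogen induces, fell 2.40-fold, from 10.88 to 11.19 in LD cells to 9.41 to 9.98 in all organoids. Of 14 other estrogen-responsive genes, 6 rose and 1 fell in each comparison. The survival gene Bcl2 rose 9.49-fold, the binding protein Igfbp5 3.44-fold and the luminal regulator Tfap2c 2.98-fold in MaSC organoids, and Myc fell 5.22-fold.

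Among 20 receptors and mediators of the relayed signals, 9 rose and 2 fell in MaSC organoids, and 11 rose and 2 fell in yMaSC organoids. Fzd7, a Wnt receptor of basal cells, read 7.52 to 7.84 in LD cells and 10.63 to 10.98 in organoids, a 9.34-fold rise in MaSC organoids. Lgr4, a receptor of R-spondins, rose 4.34-fold. Tnfrsf11a (RANK), the receptor of Tnfsf11, rose 2.68-fold, from 5.24 to 5.96 in LD cells to 6.69 to 7.34 in organoids. It was named as the partner of Tnfsf11, and Lgr5, Fzd2 and Egfr, not described here, rose by more in MaSC organoids. Rspo1, a secreted Wnt enhancer, read 7.97, 4.17 and 8.21 in LD A, B and C and 3.12 to 3.47 in organoids, near or under the lower quartile, so that no fold is given. It fell in both comparisons (adjusted p = 0.0157 and 0.0127). Without LD B the difference in MaSC organoids was -4.73 log2 in place of -3.42. The call there was lost without LD A (-2.83 log2, adjusted p = 0.0575), LD C (-2.71 log2, adjusted p = 0.0543) or MaSC organoid A (-3.31 log2, adjusted p = 0.0512). Rspo1 and Tnfsf11 were thus both low in LD B. Nfkb2, a mediator downstream of RANK, fell 4.57-fold.

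Of 6 other hormone-sensing and luminal markers measured, 4 fell and 1 rose in each comparison. Krt19 fell 4.29-fold and Spdef 3.43-fold in MaSC organoids, and Krt8 fell 1.90-fold. The factor that rose was Gata3, 2.87-fold. These counts overlap with others given here. Krt8, Krt18 and Krt19, which all fell, are also among the luminal epithelial markers, and Gata3 is also among the other estrogen-responsive genes. Of 15 relatives of the 10 genes, 2 rose and 2 fell in each comparison, which is not above the shares of all genes. Cited2, the third CITED gene, rose 7.05-fold, from 9.25 to 9.82 in LD cells to 12.05 to 12.65 in organoids. Wnt7b fell 6.09-fold and Esrrg, an orphan receptor related to Esr1, 2.41-fold, whereas Esrra rose 2.11-fold.

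The genes most like Esr1, Pgr and Foxa1 over the 9 arrays were sought among 7119 genes with a range of at least 1 log2. Closest to Esr1 were Tspan13 (Pearson r = 0.995), Krt4 (0.992) and Bzw1 (0.991). Closest to Pgr were Ptn (0.995), Cxcl15 (0.993) and AW112010 (0.991). Ptn read 12.87 to 13.03 in LD cells, 9.72 to 10.58 in organoids A and B, and 12.31 and 11.75 in organoids C. Closest to Foxa1 were Mras (0.975), Dzip1 (0.967) and Tns4 (0.958). These values describe 9 arrays in 3 groups, share the same step from LD cells to organoids, and carry no test.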

How the data were processed

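RNA of LD cells, MaSC organoids and yMaSC organoids (3 biological replicas each) had been hybridized to Affymetrix mouse arrays. The authors deposited log2 values made by RMA per the submitters' processing notes, which corrects background, applies quantile normalization and summarizes probes; the RMA version is not stated in the labels or methods. Of 45101 probe sets, 34958 had 1 gene, 932 several and 9211 none; 34754 of the first were also found by identifier in RefSeq. For each gene the probe set with the highest mean was used, without a filter. A linear model with 3 groups was fitted with limma 3.58.1 in R 4.3.3, for genes and for single probe sets, and an F test asked for the letter in organoids. The code was also run on simulated data with planted changes and independent noise between arrays. That run checked the code, not the p-values of these arrays. The labels do not say that letters were shared between groups; deviations of LD cells and organoids of the same letter correlated at -0.05 to 0.05. The members, gene lists and alternatives were chosen with earlier results of these data known. Named genes were the members, up to 4 genes of each list with the largest change in MaSC organoids among those that passed, any other hormone receptor (Tnfrsf11a is outside this rule), and the 3 genes most like each of Esr1, Pgr and Foxa1. Precision is limited by having 3 arrays a group, and p-values measure the spread between these samples.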

Additional observations from a re-analysis of the deposited data

How the results depend on the processing

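The calls of Esr1, Wnt4 and Cited1 held under all 21 alternatives in both comparisons with LD cells. Leaving out 1 array at a time moved the members lower in MaSC organoids from 5 to between 3 and 6 and those higher from 1 to between 0 and 2. In yMaSC organoids the 6 lower became 3 to 6 and the 1 higher 0 to 2. The count for the letter went from 4 to 0 in each case, with 5 arrays left, and no share of all genes is given for it. Probe sets went from 10 to between 7 and 15 lower and from 1 to between 0 and 3 higher in MaSC organoids. In yMaSC organoids they went from 13 to between 6 and 14 lower and from 1 to between 0 and 3 higher. Between the organoids the counts stayed at 0.

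With the letter as a replicate block over all arrays, 2 members rose in each comparison and 3 probe sets in each, Greb1 being the added gene. With a random replicate block by duplicateCorrelation 2 rose in yMaSC organoids, and with arrayWeights 2 rose in each comparison. Leaving out both organoids C, 2 members and 3 probe sets rose in each; for probe sets this setting was chosen after seeing the data. With the compared groups alone, 2 rose and 3 fell in MaSC organoids, Pgr and Tnfsf11 being lost. With the mean of all probe sets, 2 members passed the letter test. Shares of all genes under these settings are not given, so the shifts cannot be read as a result about the members. The cause of these shifts was not tested.

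Stc2 changed sign, never passing. Its difference was -0.46 and -0.62 log2 with the mean of probe sets in MaSC and yMaSC organoids, -0.32 and -0.26 without organoids C, and in yMaSC organoids -0.053 with cyclic loess and -0.29 with arrayWeights. Leaving out 1 array gave -0.32 to 1.22 in MaSC organoids and -0.26 to 0.32 in yMaSC organoids. Of the small differences between organoids, none of which passed, leaving out 1 array gave -0.49 to 0.14 for Esr1, -0.57 to 0.46 for Pgr, -0.81 to 0.32 for Foxa1 and -0.18 to 0.54 for Wnt4. It gave -0.54 to 0.85 for Cited1, -0.82 to 0.98 for Cited4, -0.32 to 0.86 for Greb1 and -1.16 to 0.38 for Stc2. Without organoids C of both kinds they were 0.01 for Esr1, 0.12 for Pgr, 0.17 for Foxa1 and 0.06 for Stc2. No gene that had passed changed sign under these alternatives. In MaSC organoids Pgr also missed the threshold with renewed quantile normalization (adjusted p = 0.0505) and a trended, robust prior (0.0526), as did Tnfsf11 in yMaSC organoids (0.0569 and 0.0567) and with cyclic loess (0.0583). Tnfsf11 and Greb1 were not tested among genes above the median level. Of the other pathway genes named, leaving out 1 array, a check chosen after seeing the data, ended calls of Rspo1, Vdr, Esrrg and Nr3c2. In MaSC organoids Vdr was lost without LD A, LD B or MaSC organoid A (0.95 to 1.25 log2, adjusted p 0.0564 to 0.0866) and Esrrg without LD A or MaSC organoid A (-1.10 and -1.05 log2, adjusted p = 0.0589 and 0.0631). In yMaSC organoids Nr3c2 was lost without any LD array, yMaSC organoid A or B (-0.89 to -0.65 log2, adjusted p 0.0555 to 0.133).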
